A study of Mus musculus with 16 samples.

Results

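The comparison described here is that of dimethyl α-ketoglutarate (αKG, a cell-permeable ester of the citric acid cycle metabolite) with the control treatment labelled DW, 12 and 24 h into the culture of macrophages with RANKL. It rests on 4 of the 16 arrays of the series, which are the αKG arrays at 12 h and 24 h and the DW arrays at 12 h and 24 h, paired by time. Bone marrow cells came from tibias and femurs of male C57BL/6 mice aged 5 weeks and were grown to bone marrow-derived macrophages (BMM). Both the DW and the αKG cells had M-CSF, the growth factor that keeps macrophages alive, and RANKL, the cytokine that turns them into osteoclasts; the αKG cells had in addition 1 mM dimethyl αKG. The labels say only that DW or αKG was given during osteoclastogenesis, so the time between αKG and RANKL is not known here. The 2 arrays at 0 h came from cells with M-CSF and DW and without RANKL. Each treatment at each later time is 1 array, nothing in the labels ties arrays to separate mice or cultures, and the p-values below measure only the spread between these arrays. Of 22180 genes with a feature of their own on the array, the 15526 above the lowest 30% by mean level were tested.

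αKG enters the citric acid cycle and is also the co-substrate of a large family of dioxygenases, among them prolyl hydroxylases and histone and DNA demethylases. In macrophages, electrophiles and oxidants stabilise the transcription factor NRF2, which binds antioxidant response elements and switches on genes for cystine uptake, glutathione synthesis, quinone reduction and NADPH supply. RANKL acts through NF-κB, AP-1 and the master regulator NFATc1 to replace the macrophage program with that of the osteoclast, whose effectors include tartrate-resistant acid phosphatase (Acp5), cathepsin K (Ctsk) and the proton pump, and RANKL signalling itself uses and is restrained by the cell's redox state.

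At 12 to 24 h, 15 genes passed an adjusted p of 0.05 in limma's moderated test, 12 higher and 3 lower with αKG, which is 0.0773% and 0.0193% of the genes tested. The higher genes were the cystine-glutamate antiporter Slc7a11, the quinone reductase Nqo1, the betaine and GABA transporter Slc6a12, the prostaglandin reductase Ptgr1, the arrestin-domain protein Arrdc4, the zinc importer Slc39a4, the glutamate-cysteine ligase modifier Gclm, the prostaglandin E2 receptor Ptger2, the metallothionein Mt2, the glutathione S-transferase Gstp1, the NAD-consuming ectoenzyme Bst1 and A530064D06Rik, a clone-named gene. The lower genes were the membrane-bound collagenase Mmp14, the acute phase protein Saa3 and the transferrin receptor Tfrc. Of the 25 NRF2 target genes tested, 5 rose and none fell, and the mitosis, DNA replication and osteoclast effector lists had 1 call between them, that of Mmp14. At an unadjusted p under 0.05 there were 1452 genes, and the median difference over all genes was 0.00 on the log2 scale.

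The promoters of some of the genes that rose are shown, searched for short letter patterns of known regulators. The pattern in capitals was chosen gene by gene, and each promoter shown held the pattern chosen for it. Each run below is the 250 bases before the RefSeq start of the gene on build GRCm38.p6, written 5′ to 3′ on the gene's own strand. Slc7a11 (chr3:50443614-50443863, minus strand) and Ptgr1 (chr4:58987079-58987328, minus strand) have the ATF4 element TGATGNAAN in capitals, Gclm (chr3:122245307-122245556, plus strand) the antioxidant response element core TGACNNNGC, and Gstp1 (chr19:4037913-4038162, minus strand) the AP-1 pattern TGANTCA. Mt2 (chr8:94172368-94172617, plus strand) has the metal response elements TGCACNC or TGCGCNC in capitals, and Arrdc4 (chr7:68749239-68749488, minus strand) the E-box CACGTG.
Slc7a11: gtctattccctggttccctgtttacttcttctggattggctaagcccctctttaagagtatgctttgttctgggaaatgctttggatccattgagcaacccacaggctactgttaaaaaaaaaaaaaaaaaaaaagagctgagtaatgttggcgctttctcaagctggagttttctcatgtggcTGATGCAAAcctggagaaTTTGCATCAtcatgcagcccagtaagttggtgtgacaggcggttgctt
Ptgr1: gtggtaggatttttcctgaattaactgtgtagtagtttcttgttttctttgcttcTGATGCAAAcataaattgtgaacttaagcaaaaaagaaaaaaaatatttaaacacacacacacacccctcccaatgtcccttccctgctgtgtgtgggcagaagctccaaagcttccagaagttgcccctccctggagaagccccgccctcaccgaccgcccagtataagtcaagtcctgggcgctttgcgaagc
Gclm: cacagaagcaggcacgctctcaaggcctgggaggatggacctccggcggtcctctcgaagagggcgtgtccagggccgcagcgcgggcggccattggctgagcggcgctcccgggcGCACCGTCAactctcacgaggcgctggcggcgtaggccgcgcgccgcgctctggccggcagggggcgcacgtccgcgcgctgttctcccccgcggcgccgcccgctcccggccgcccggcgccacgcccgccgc
Gstp1: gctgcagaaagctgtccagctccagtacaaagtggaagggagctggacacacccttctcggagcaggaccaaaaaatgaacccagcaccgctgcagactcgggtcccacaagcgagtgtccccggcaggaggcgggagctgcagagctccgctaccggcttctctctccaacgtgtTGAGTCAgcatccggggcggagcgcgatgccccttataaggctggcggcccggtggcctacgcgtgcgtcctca
Mt2: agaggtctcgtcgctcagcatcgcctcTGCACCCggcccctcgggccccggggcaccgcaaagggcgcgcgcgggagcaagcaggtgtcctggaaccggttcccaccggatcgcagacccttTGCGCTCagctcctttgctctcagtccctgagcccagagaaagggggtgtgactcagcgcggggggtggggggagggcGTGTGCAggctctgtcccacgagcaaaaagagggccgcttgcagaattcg
Arrdc4: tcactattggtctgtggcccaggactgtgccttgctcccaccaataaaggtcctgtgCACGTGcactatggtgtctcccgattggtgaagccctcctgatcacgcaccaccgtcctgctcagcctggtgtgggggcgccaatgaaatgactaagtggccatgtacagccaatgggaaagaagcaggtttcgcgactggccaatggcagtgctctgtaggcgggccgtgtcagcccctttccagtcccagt
Both strands were searched, so a match on the other strand appears as its reverse complement. Slc7a11 held 2 ATF4 elements facing each other, 48 and 66 bases before the start. Gclm held 1 antioxidant response element core on the other strand, 134 bases before the start, and Arrdc4 held 1 such core besides its E-box. Mt2 held 3 metal response elements between 50 and 223 bases before the start, and also 1 antioxidant core that overlaps an AP-1 match. Of the 10 higher genes with a promoter in the table, 3 held the antioxidant core, against 13.58% of the 12037 tested genes with a promoter there. Of the 19 NRF2 target genes with a promoter there, 2 (10.53%) held it. Among the called NRF2 targets Gclm held it, and Slc7a11, Nqo1, Ptgr1 and Gstp1 did not. The ATF4 element was in 2 of the 10 and in 2.61% of all, the AP-1 pattern in 3 and 6.11%, the metal response element in 4 and 31.75%, and the E-box in 1 and 9.16%. The antioxidant core can overlap the AP-1 pattern, so those counts are not separate. Of the promoters of the 3 lower genes, 1 held a metal response element and 0 held any of the other patterns. Matches of letters are descriptions of these windows and not sites of binding.

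Members of the NRF2 target list made up 5 of the 12 higher genes, among them genes of cystine uptake, glutathione and quinone reduction. Slc7a11, which imports cystine for glutathione, had a log2 level of 5.00 at 12 h and 4.53 at 24 h with DW, and 8.07 and 6.70 with αKG. Both αKG arrays lay above both DW arrays, and the difference was 3.07 at 12 h and 2.17 at 24 h. The mean of these 2 pairs was 2.62 ± 0.33, or 6.14-fold (adjusted p = 0.028 in limma's test). Here and below, ± gives limma's SE, whose spread comes from the 12 arrays of the fit and not from the 2 pairs alone. Calls were made on these same arrays, so groups of a called gene that do not overlap are no further support, here and below. A second, dimmer feature of Slc7a11, with a mean level of 3.25, differed by 1.84 at 12 h and 0.78 at 24 h. The DW level of Slc7a11 fell through the culture, from 6.75 at 3 h to 3.23 at 72 h, and the αKG level went from 9.23 at 3 h to 4.18 at 72 h. Its αKG effect was 3.26 at 3 to 6 h (adjusted p = 0.012) and 0.73 at 48 to 72 h (adjusted p = 0.272), and neither change of the effect with time passed the test (adjusted p = 0.926 and 0.194).

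Nqo1, which reduces quinones at the expense of NADPH, read 6.34 and 6.03 with DW at 12 and 24 h and 8.26 and 7.61 with αKG. The groups did not overlap, and Nqo1 was higher by 1.75 ± 0.22 (limma's SE), or 3.37-fold (adjusted p = 0.028 in limma's test). Across the pairs of 3, 6, 12, 24, 48 and 72 h, its differences were 0.30, 1.20, 1.92, 1.58, 1.39 and 0.80. The largest of the 6 values was thus that at 12 h, although the change of the effect from 3 to 6 h did not pass (adjusted p = 0.697). Gclm, the regulatory subunit of the rate-limiting enzyme of glutathione synthesis, read 9.70 and 9.07 with DW and 10.87 and 10.27 with αKG. Its 2 pairs differed by nearly the same amount, 1.17 and 1.20, and the mean of 1.19 ± 0.12 was 2.27-fold (adjusted p = 0.0129). Gclm had also passed at 3 to 6 h, at 1.06, and passed again at 48 to 72 h, at 0.81.

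Ptgr1, which reduces prostaglandins, leukotriene B4 and reactive alkenals, read 8.10 and 7.68 with DW and 9.55 and 8.72 with αKG. It differed by 1.45 at 12 h and 1.04 at 24 h, and the mean was 1.24 ± 0.14 (adjusted p = 0.0187). Gstp1, which joins glutathione to electrophiles, read 8.89 and 8.30 with DW and 9.57 and 9.43 with αKG. Its effect of 0.90 ± 0.12 passed at 12 to 24 h (adjusted p = 0.028) and was 0.12 at 3 to 6 h and 0.24 at 48 to 72 h, neither of which passed. The near-identical copy Gstp2 differed by 0.33, and probes of the pair may share signal.

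**Figure D1:**
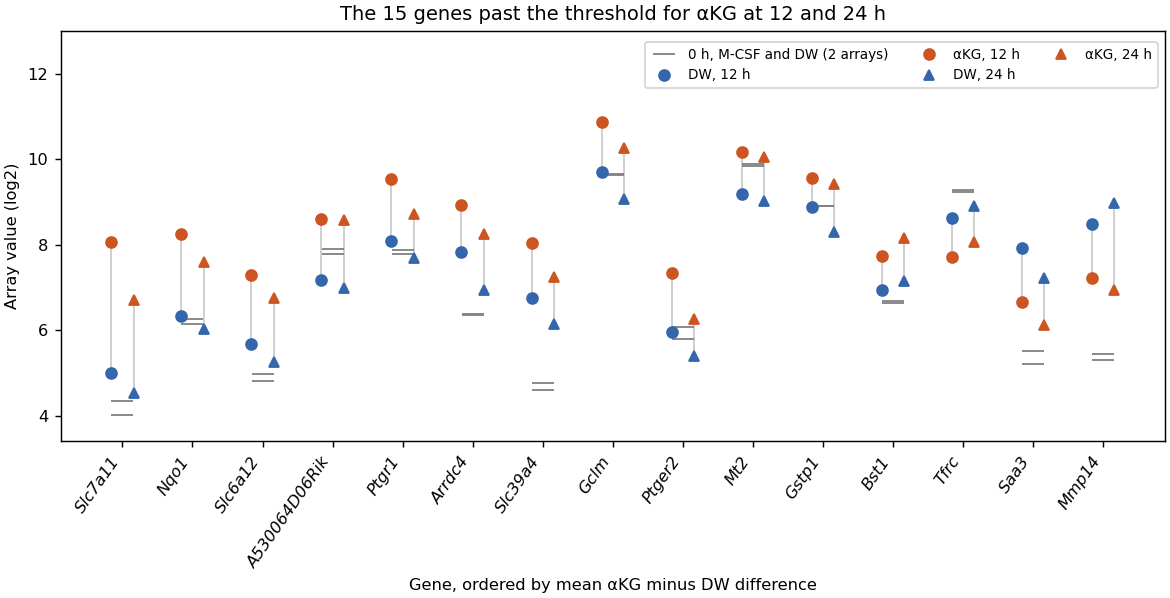
Log2 level of the 15 genes that passed the test at 12 to 24 h, with DW and αKG at 12 h and 24 h as separate points and the 2 arrays at 0 h as reference marks. In each of the 12 higher genes both αKG points lie above both DW points, and in each of the 3 lower genes both lie below. Of all genes tested, 12.7% lie above and 11.8% below in this way. The 15 genes were called from these same arrays, so their separation is no further support.

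The list of 25 NRF2 targets moved mostly in one direction beyond its 5 calls. At both times 23 of the 25 were above 0 and 0 were below, where 28.9% of all genes were above 0 at both times and 28.8% below. These shares over all genes apply to each such count of a list below. The median difference of the list was 0.71 at 12 h and 0.40 at 24 h, and 0.52 for the mean of both, against 0.00 for all genes. Both αKG arrays lay above both DW arrays in 17 of the 25 and below in 0, against 12.7% and 11.8% of all genes. Slc7a11, Nqo1, Gclm, Ptgr1 and Gstp1 were picked into this list with earlier results of these data in view, so the count is a description.

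NRF2 targets that did not pass had differences of smaller size or wider spread. Hmox1, which degrades heme, read 9.89 and 10.03 with DW and 10.77 and 10.99 with αKG, a difference of 0.92 ± 0.18 (adjusted p = 0.123). Gsr, which regenerates reduced glutathione, read 8.50 and 8.69 with DW and 9.55 and 9.43 with αKG, a difference of 0.89 ± 0.13 (adjusted p = 0.0579). In both genes the 2 αKG arrays lay above the 2 DW arrays, and neither gene passed. Pgd, of the NADPH-making pentose phosphate pathway, differed by 0.48 (adjusted p = 0.0859). Me1, the cytosolic malic enzyme, differed by 0.67 (adjusted p = 0.192). The median over the 10 genes of NRF2 and its regulators was 0.09, with 0 called; the transcript of NRF2 itself, Nfe2l2, differed by 0.26 and that of its inhibitor Keap1 by -0.01.

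The lists nearest to glutathione held the same calls. Of 17 genes of cystine uptake and glutathione synthesis and use, 2 rose (Slc7a11 and Gclm), and the median was 0.10. In 7 of the 17 both αKG arrays lay above both DW arrays and in 1 below, against 12.7% and 11.8% of all genes. Of 15 glutathione S-transferases, 1 rose (Gstp1), and the median was 0.12; Mgst1, a membrane-bound transferase, differed by 0.68 (adjusted p = 0.17). Of 20 genes of the ATF4 and amino acid response, 1 rose, again Slc7a11, which both transcription factors are known to drive, and the median was 0.14.

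**Figure D2:**
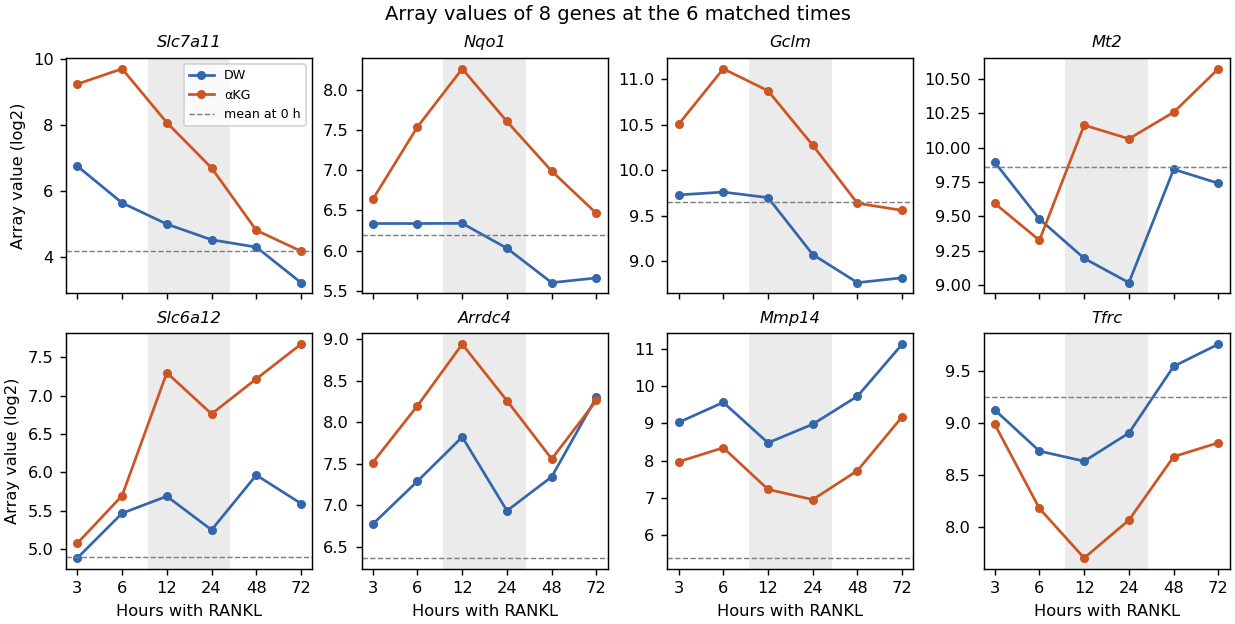
Log2 level by time of RANKL for Slc7a11, Nqo1, Gclm, Mt2, Slc6a12, Arrdc4, Mmp14 and Tfrc, with DW and αKG as lines through 1 array per time, the mean at 0 h dashed and 12 to 24 h in grey. Slc7a11 is apart from 3 h on and 0.51 apart at 48 h, Nqo1 is apart from 6 h on, Mt2 and Slc6a12 part mainly from 12 h on, and Arrdc4 is apart until 24 h and together at 48 and 72 h.

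Transporters and metal-handling genes made up another 4 of the higher and lower calls. Slc6a12, which carries betaine and GABA into cells and is known for its response to osmotic stress, read 5.69 and 5.25 with DW and 7.30 and 6.76 with αKG. The groups did not overlap, and the difference of 1.56 ± 0.18 was 2.95-fold (adjusted p = 0.0193). Slc6a12 differed by 0.21 at 3 to 6 h, which did not pass, and by 1.67 at 48 to 72 h, which did. Of the 6 osmolyte genes tested, Slc6a12 was the 1 called. All 6 lay above 0 at both times, against 28.9% of all genes, with a median of 0.26.

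Mt2, which binds zinc and copper, read 9.19 and 9.02 with DW and 10.16 and 10.06 with αKG. Its level with DW was lower at 12 and 24 h than in the 0 h arrays, at 9.83 and 9.88, and its level with αKG was higher than in them. The difference at 12 to 24 h was 1.01 ± 0.11 (adjusted p = 0.0129), against -0.23 at 3 to 6 h, and Mt2 had the smallest p of all genes in the test of that change, which did not pass (adjusted p = 0.261). Mt1, the neighbouring isoform, differed by 0.29 (adjusted p = 0.242). Slc39a4, a zinc importer of the plasma membrane, read 6.75 and 6.14 with DW and 8.05 and 7.25 with αKG, a difference of 1.20 ± 0.12 (adjusted p = 0.0129). It stood above its 0 h levels of 4.77 and 4.59 in all 4 arrays, highest with αKG at 12 h. Over the 19 genes of metallothioneins and zinc handling, 2 rose and the median was 0.00.

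Tfrc, through which cells take up transferrin-bound iron, read 8.64 and 8.91 with DW and 7.70 and 8.07 with αKG. Both αKG arrays were below both DW arrays, and the difference of -0.89 ± 0.11 left 0.541 of the DW level (adjusted p = 0.0288). From the first to the last of the 6 times, the differences of Tfrc were -0.14, -0.55, -0.93, -0.84, -0.87 and -0.95. It fell at 12 to 24 h and at 48 to 72 h and did not pass at 3 to 6 h. Of the 17 iron and heme genes tested, Tfrc alone was called, and 7 lay above and 6 below 0 at both times. Slc40a1, the iron exporter, differed by 0.21 at 12 h and 1.30 at 24 h and was not called.

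Among genes of prostaglandins, Ptger2 rose beside Ptgr1. Ptger2, a receptor of prostaglandin E2 that raises cyclic AMP, read 5.96 and 5.39 with DW and 7.34 and 6.27 with αKG. Both αKG arrays were higher, by 1.38 at 12 h and 0.89 at 24 h, and the mean was 1.13 ± 0.14 (adjusted p = 0.028). Its effect at 3 to 6 h was 0.07 and at 48 to 72 h 0.80, of which the latter passed. Of the 20 genes of prostaglandin synthesis, receptors and breakdown, these 2 rose, 0 fell, and the median was 0.10; the prostacyclin receptor Ptgir differed by 0.75 (adjusted p = 0.24).

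Arrdc4, an arrestin-domain protein that limits glucose uptake and is a target of the glucose sensor MondoA, read 7.82 and 6.93 with DW and 8.94 and 8.26 with αKG. The groups did not overlap, and the difference was 1.22 ± 0.12 (adjusted p = 0.0129). The effect of αKG on Arrdc4 was 0.82 at 3 to 6 h (adjusted p = 0.0416) and 0.09 at 48 to 72 h (adjusted p = 0.754), and its change from 12 to 24 h to 48 to 72 h was -1.13 ± 0.17 (adjusted p = 0.0554). Txnip, its best-known relative and another MondoA target, read 10.60 and 9.82 with DW and 11.28 and 10.91 with αKG, a difference of 0.89 ± 0.14 that did not pass (adjusted p = 0.0641). Of the 10 genes of this list 1 rose, and the median was 0.22. At both times 7 lay above 0 and 1 below, against 28.9% and 28.8% of all genes. Arrdc3, of the same family, differed by -0.30.

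Bst1, a surface enzyme that makes cyclic ADP-ribose from NAD, read 6.93 and 7.15 with DW and 7.73 and 8.15 with αKG. Its difference of 0.90 ± 0.11 passed (adjusted p = 0.028). In order of time, the 6 differences of Bst1 were 0.14, 0.16, 0.80, 1.00, 1.03 and 1.05, small in the first 2 pairs and near 1 in the last 3. A530064D06Rik read 7.18 and 6.98 with DW and 8.60 and 8.57 with αKG, a difference of 1.51 ± 0.14 (adjusted p = 0.0129), and it passed in the pairs at 3 to 6 h and 48 to 72 h as well.

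Mmp14, the membrane collagenase of macrophages and osteoclasts, was the osteoclast effector that fell. With DW it read 8.48 at 12 h and 8.98 at 24 h, far above the 0 h levels of 5.45 and 5.31, and with αKG it read 7.23 and 6.95. Both αKG arrays were below both DW arrays, and the difference of -1.64 ± 0.16 left 0.321 of the DW level (adjusted p = 0.0129). Mmp14 had fallen already at 3 to 6 h, by 1.14 (adjusted p = 0.0398), and was lower by 1.97 at 48 to 72 h. Saa3, an acute phase protein that macrophages make in inflammation, read 7.92 and 7.21 with DW and 6.66 and 6.12 with αKG. Its difference was -1.18 ± 0.13, or 0.443 of the DW level (adjusted p = 0.0129), and its fall also passed at 3 to 6 h, at -1.13, and at 48 to 72 h, at -0.53. The 2 arrays at 0 h read 5.51 and 5.21, so Saa3 was above them in all 4 arrays at 12 and 24 h.

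Of the 13 acute phase and complement genes tested, Saa3 among them, 1 fell, which was Saa3. At both times 8 of the 13 were below 0 and 2 above, against 28.8% and 28.9% of all genes, and the median was -0.29. In 7 of the 13 both αKG arrays lay below both DW arrays, against 11.8% of all genes. C1qa, a chain of the first complement component, differed by -0.61 ± 0.09 (adjusted p = 0.0609).

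Osteoclast effector genes other than Mmp14 had no call at these times. Of the 29 osteoclast effector genes tested, 0 rose and 1 fell at 12 to 24 h, 7 lay above and 11 below 0 at both times, and the median was 0.02 at 12 h and -0.16 at 24 h. At 48 to 72 h, 24 of the 29 were called lower, against 338 of all 15526 genes tested, and the median was -1.32. The median level of these genes with DW was 6.34, 6.88, 7.19, 7.43, 9.48 and 10.7 over the times from 3 to 72 h. With αKG it was 6.14, 6.56, 6.86, 6.95, 8.23 and 8.80, lower than DW at each of the 6. Each median level over 29 genes is the level of 1 gene, and at 12 h the median of the differences was 0.02.

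Acp5 read 7.56 at 12 h and 8.73 at 24 h with DW and 7.19 and 8.12 with αKG, a difference of -0.49 ± 0.14 (adjusted p = 0.325). Ctsk read 6.33 and 7.38 with DW and 6.32 and 6.67 with αKG, a difference of -0.36 ± 0.18 (adjusted p = 0.595). In both genes the level was higher at 24 h than at 12 h under either treatment and the treatments overlapped. Mmp9, the gelatinase, read 7.47 and 9.13 with DW and 6.86 and 8.13 with αKG, a difference of -0.81 ± 0.13 (adjusted p = 0.0688). Atp6v0d2, the osteoclast subunit of the proton pump and a gene picked after its values were seen, differed by -0.13 at 12 h and -1.75 at 24 h, and the mean of -0.94 ± 0.30 did not pass (adjusted p = 0.379). It read 6.15 and 8.20 with DW and 6.02 and 6.46 with αKG, so the DW array at 24 h stood above the other 3.

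Of the listed regulators of the osteoclast, 0 were called at 12 to 24 h. Nfatc1, the master regulator, read 8.79 and 8.29 with DW and 8.59 and 8.15 with αKG, a difference of -0.17 ± 0.09 (adjusted p = 0.625). Of the 18 genes of the Nfatc1 circuit 0 were called, and 1 lay above and 8 below 0 at both times. Prdm1, which silences repressors of the osteoclast, read 6.67 and 6.81 with DW and 6.08 and 5.75 with αKG, a difference of -0.82 ± 0.15 (adjusted p = 0.106). Irf8, such a repressor, read 8.94 with DW and 8.74 with αKG at 12 h and 7.22 with DW at 24 h. Its difference was -0.21 at 12 h and 0.78 at 24 h, opposite in sign, and the mean was 0.29 ± 0.24 (adjusted p = 0.786). Rbpj, a repressor of osteoclast differentiation in the Notch pathway, differed by 0.45 ± 0.10 (adjusted p = 0.189). Over the 13 repressors the median was 0.12, with 6 above 0 at both times and 1 below. The median was -0.07 over the 13 genes of RANK and its adaptors and 0.11 over the 12 ITAM receptors and kinases, with 0 called in each of the 3 lists.

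The test of change with time compared the αKG effect at 12 to 24 h with that before and after. Between 3 to 6 h and 12 to 24 h, 0 genes (0%) passed in limma's test, with 910 at an unadjusted p under 0.05. Between 12 to 24 h and 48 to 72 h, 16 genes (0.103%) passed, and all 16 had a lower effect at the later times. They were Oscar, Dcstamp, Ocstamp, Car2, Slc9b2, Atp6v1d, Atp6v1b2, Slc4a2, Ccr1, Tm4sf19, Myo1d, Ext1, Slc18a1, Fam102a, Arsb and Mt3. Oscar, a co-stimulatory receptor of the osteoclast, differed by -0.14 at 12 to 24 h and by -2.79 at 48 to 72 h, a change of -2.65 ± 0.19 (adjusted p = 0.00348). Dcstamp, needed for fusion of precursors, went from -0.16 to -2.14. By their own test, 25 genes were called at 3 to 6 h and 663 at 48 to 72 h, and these counts alone are no test of a difference.

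**Figure D3:**
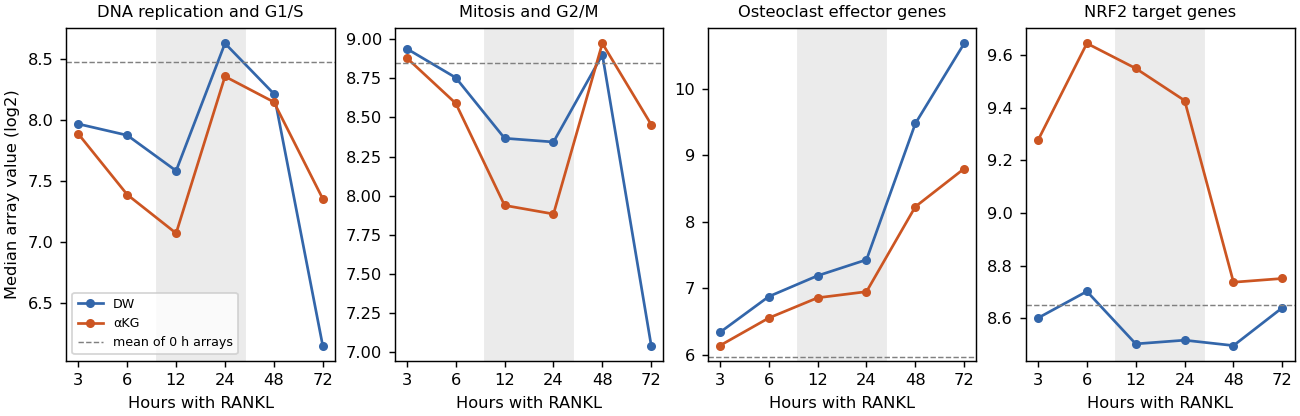
Median log2 level by time of RANKL over the genes of DNA replication, mitosis, osteoclast effectors and NRF2 targets, with DW and αKG as lines through 1 array per time. The NRF2 targets lie farthest apart from 3 to 24 h, the osteoclast effectors from 48 h on, and the mitosis genes are lower with αKG at 12 and 24 h and higher at 72 h.

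Cell division genes were lower with αKG in both pairs with no gene passing. Of 24 genes of mitosis and G2/M, all 24 were below 0 at both times, against 28.8% of all genes, and the median was -0.54 at 12 h and -0.58 at 24 h. In 21 of the 24 both αKG arrays lay below both DW arrays, against 11.8% of all genes. Top2a, which untangles DNA before division, read 9.19 and 9.45 with DW and 8.20 and 8.84 with αKG, a difference of -0.80 ± 0.27 (adjusted p = 0.402). Nusap1, a spindle protein, differed by -0.85 (adjusted p = 0.307). At 48 to 72 h the median of the list was 0.75 in the opposite direction, with 0 called. The median level of the list was 8.90 with DW and 8.97 with αKG at 48 h, and 7.04 and 8.45 at 72 h, so that value came mostly from the 72 h pair.

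Of 23 genes of DNA replication and G1/S, 21 were below 0 at both times, with a median of -0.51 at 12 h and -0.28 at 24 h and 0 called. The median level of these genes with DW was 7.58 at 12 h and 8.63 at 24 h, and with αKG 7.07 and 8.36. The step from 12 to 24 h was thus larger than the step between treatments. In 0 of the 23 did both αKG arrays lie below both DW arrays, against 11.8% of all genes. Tyms, which makes thymidylate, differed by -0.77 ± 0.26 (adjusted p = 0.408), and the helicase loader Cdc6 by -0.52. Histone genes were picked after their values were seen: of 23 tested, 20 were below 0 at both times and 1 above, the median was -0.66, and 0 were called. H2bc18 read 7.82 and 8.20 with DW and 6.64 and 6.82 with αKG, a difference of -1.28 ± 0.19 (adjusted p = 0.0585). These arrays measure a bulk RNA, in which fewer dividing cells and less of these transcripts per cell cannot be told apart.

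**Figure D4:**
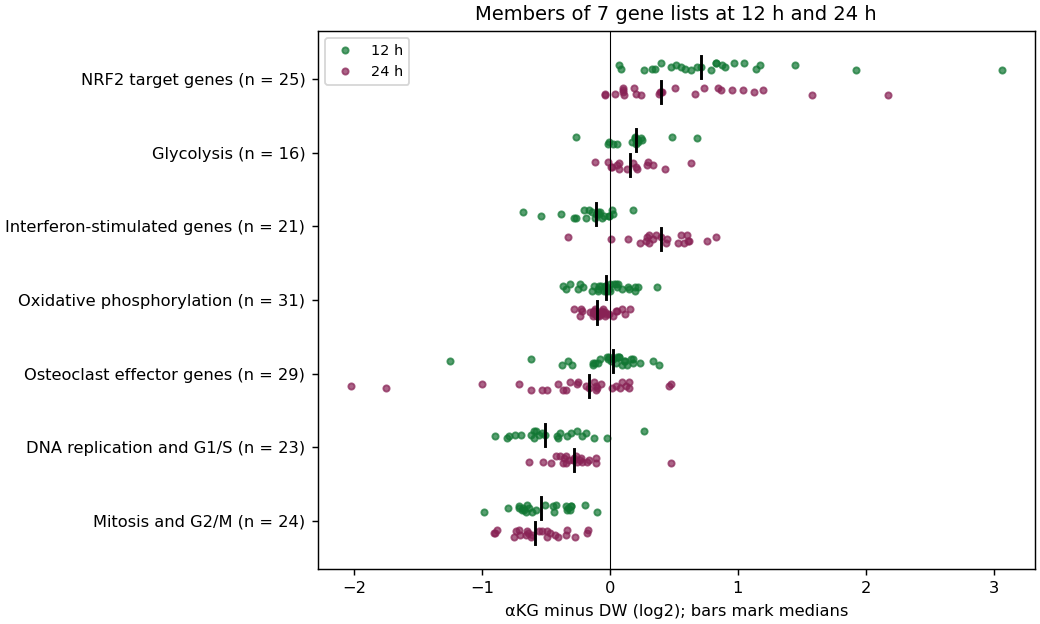
Difference in log2 level, αKG minus DW, of each tested member of 7 gene lists at 12 h and at 24 h, with bars at the medians. The NRF2 targets lie mostly above 0, the mitosis genes lie below 0 at both times, and the interferon-stimulated genes move from a median of -0.11 at 12 h to 0.40 at 24 h.

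Genes of central metabolism had no call. Of 30 genes of the citric acid cycle and the entry of pyruvate and glutamate, 0 were called, 8 lay above and 8 below 0 at both times, and the median was 0.00. Idh1, the cytosolic enzyme of that list that makes αKG and NADPH from isocitrate, differed by 0.66 ± 0.11 (adjusted p = 0.0765). Of 31 genes of oxidative phosphorylation, 0 were called and the median was -0.05. At both times 3 of the 31 lay above 0 and 16 below, against 28.9% and 28.8% of all genes. Of 16 glycolysis genes, 12 lay above 0 at both times and 1 below, against 28.9% and 28.8% of all genes. Their median was 0.17 and 0 were called, and the glucose transporter Slc2a1 differed by 0.66. Of the 25 dioxygenases that use αKG, 0 were called, 6 lay above and 5 below 0 at both times, and the median was 0.03. Among them P4ha2, a collagen prolyl hydroxylase, differed by 0.39 (adjusted p = 0.468) and Kdm3a, a histone H3 demethylase, by 0.27 (adjusted p = 0.513). Of the 8 carriers of dicarboxylates and αKG tested, 0 were called, and Slc13a3, a plasma membrane dicarboxylate carrier, differed by -0.26 (adjusted p = 0.468).

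Of 17 targets and prolyl hydroxylases of the hypoxia-inducible factor, 0 were called, and the median was 0.16. At both times 11 lay above 0 and 3 below, against 28.9% and 28.8% of all genes. Vegfa, the angiogenic growth factor, read 6.76 and 6.67 with DW and 7.60 and 7.08 with αKG, a difference of 0.62 ± 0.18 (adjusted p = 0.318). Both αKG arrays lay above both DW arrays, and the gene did not pass. Of 16 genes of cholesterol synthesis and LXR, 0 were called, and Nr1h3, which encodes LXRα, differed by -0.59 ± 0.14 (adjusted p = 0.208).

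Inflammatory and interferon genes had no call. Over the 23 NF-κB and inflammatory genes the median was 0.00. Ccl3, a chemokine, read 8.76 and 9.34 with DW and 9.84 and 10.94 with αKG, a difference of 1.34 ± 0.25 (adjusted p = 0.106). Acod1, which makes itaconate from the citric acid cycle, differed by 1.11 ± 0.24 (adjusted p = 0.17). Over the 21 interferon-stimulated genes the median was 0.13, with 3 above and 1 below 0 at both times, so most changed sign between 12 and 24 h. Stat2, a transducer of interferon signals, differed by -0.07 at 12 h and 0.83 at 24 h.

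Genes of matrix breakdown, surface receptors and stress held no further call. Of the 15 matrix metalloproteinases and inhibitors, 1 fell, again Mmp14; Timp2, which both inhibits metalloproteinases and takes part with Mmp14 in activating Mmp2, read 9.95 and 9.83 with DW and 9.52 and 9.36 with αKG. Timp2 was lower in both αKG arrays by nearly the same amount and did not pass (-0.45 ± 0.09, adjusted p = 0.125). Of 15 membrane and dendritic-like genes that RANKL raises, 7 lay below 0 at both times and 1 above, with a median of -0.21 and 0 called. Tmem176b, of that list, read 11.14 and 10.13 with DW and 10.78 and 9.62 with αKG, far above its 0 h levels of 5.91 and 5.75 under either treatment. Of 19 genes of lipid peroxidation, ferroptosis and aldehyde defence, Tfrc was the 1 call, and Akr1b8, an aldehyde reductase, differed by 0.85 ± 0.16 (adjusted p = 0.106). Of 12 heat shock genes, 20 immediate early and ERK feedback genes and 13 p53 targets and survival genes, 0 were called, and the medians were 0.08, 0.07 and 0.05. Bcl2a1a, a survival factor of myeloid cells with near copies in the genome, differed by -0.70 ± 0.17 (adjusted p = 0.213).

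Genes that were at least 2-fold apart at both times numbered 20 of 15526, 12 higher (0.0773%) and 8 lower (0.0515%). The same count was 15 for the pairs at 3 and 6 h and 71 for those at 48 and 72 h. In single pairs, 65 genes were 2-fold apart at 12 h and 57 at 24 h, and the 2 arrays at 0 h, which had the same labels, were 2-fold apart in 9. Among the 20, Vcam1, an adhesion molecule, read 7.72 and 7.13 with DW and 6.36 and 5.69 with αKG, a difference of -1.40 ± 0.21 that did not pass (adjusted p = 0.0579). Cd4, which some myeloid cells also carry, read 9.65 and 8.69 with DW and 8.27 and 7.18 with αKG, a difference of -1.45 ± 0.27 (adjusted p = 0.109). Cd3e, a defining gene of T cells, lay below the level tested in all 4 arrays, while Cd3d, another, was among the genes tested. The part of T cells in the Cd4 difference was not tested. Spry3, of a family that restrains receptor signalling, read 5.47 and 4.44 with DW and 6.90 and 5.83 with αKG, a difference of 1.41 ± 0.21 (adjusted p = 0.0579). Pla2g7, which inactivates platelet-activating factor, differed by 1.31 ± 0.23 (adjusted p = 0.0963), and Tarm1, an activating receptor of myeloid cells, by 1.37 ± 0.27 (adjusted p = 0.137).

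**Figure D5:**
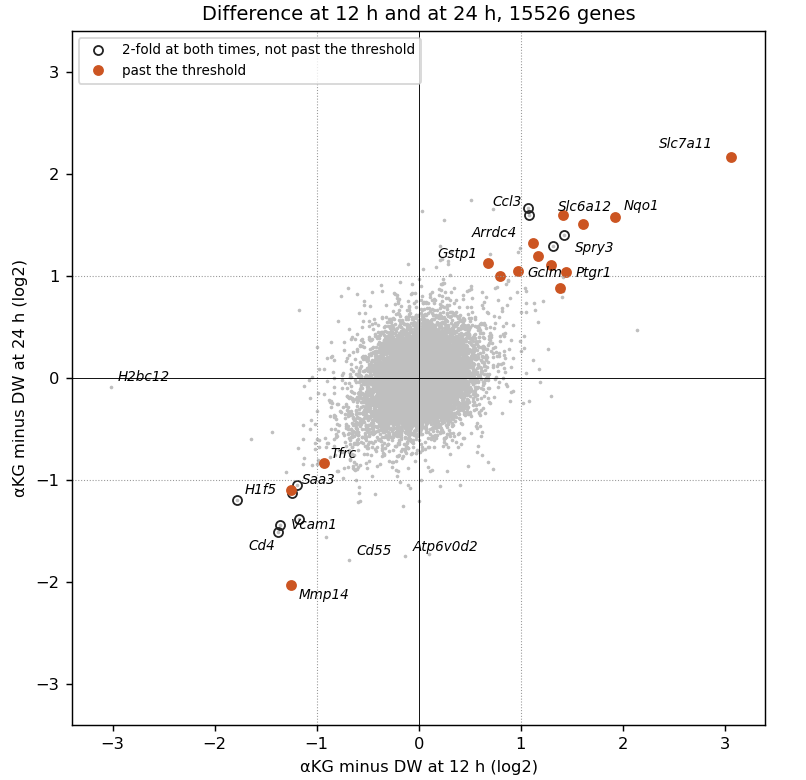
Difference in log2 level, αKG minus DW, at 24 h against that at 12 h for the 15526 genes tested, with the 15 called genes and the genes 2-fold apart at both times marked. Slc7a11 lies farthest at the upper right, at 3.07 and 2.17, and Mmp14 at the lower left, at -1.25 and -2.03.

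Some genes differed at 1 of the 2 times and not at the other; they were chosen after their values were seen and have no test. H2bc12, a histone, read 9.18 with DW and 6.16 with αKG at 12 h, and 8.60 and 8.52 at 24 h. Ednrb, an endothelin receptor, read 7.01 with DW and 9.15 with αKG at 12 h, and 5.88 and 6.35 at 24 h. Slfn4 differed by 0.24 at 12 h and 1.55 at 24 h, Slfn1 by 0.03 and 1.64, and Ifitm6 by 0.51 and 1.75. The sign of the difference was the same at both times in 57.7% of the genes tested, and a single array decides each such value.

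The fit behind these calls takes its spread from all 6 pairs of times. In a fit of only the 4 arrays at 12 and 24 h, 139 genes (0.895%) were higher and 206 (1.33%) lower, with Hmox1 (adjusted p = 0.000143), Gsr (0.00102), Txnip (0.00065), Mmp9 (0.00499), Cd4 (3.91e-05), Vcam1 (0.000143) and Top2a (0.00288) among them. That fit called 15 of the 25 NRF2 targets higher, 16 of the 24 mitosis genes lower and 7 of the 23 replication genes lower. In it a gene's own spread is only the gap between its differences at 12 h and at 24 h. Its adjusted p-values and counts therefore rest largely on the spread that limma shares across genes. They are given to show how far the calls depend on the arrays fitted. Genes that passed there and not in the main fit are not counted as called here. Without the 48 h pair 312 genes passed and without the 72 h pair 295, each including the 15, while without the 12 h pair 1 passed and without the 24 h pair 0.

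Markers of the cells were checked against the labels. All 12 macrophage genes were above the lowest 30%, with a mean level of 10.5 and 10.3 with DW and 10.4 and 10.4 with αKG at 12 and 24 h. Csf1r, the receptor of M-CSF, read 11.71 and 11.22 with DW and 11.82 and 11.44 with αKG. Aif1, a calcium-binding protein of macrophages, read 8.53 and 8.06 with DW and was lower by about the same amount in both αKG arrays, a difference of -0.58 ± 0.13 (adjusted p = 0.179). Of the 12 macrophage genes 0 were called, and 4 lay above and 4 below 0 at both times. Of the 9 genes of T and NK cells on the array, 3 were above the lowest 30%. The mean level of the 9 was 4.54 and 4.61 with DW and 4.52 and 4.29 with αKG at 12 and 24 h. Their summed level was 9.89 and 9.17 on the log2 scale with DW and 8.85 and 8.19 with αKG. Cd4, the gene described above, is in that sum and was the highest of the 9 in each array, at 9.65 and 8.69 with DW and 8.27 and 7.18 with αKG. Cd3e, which all T cells carry, read 4.10 and 4.11 with DW and 3.93 and 4.10 with αKG, below the level tested. Cd3d, another T cell gene, was tested and read 4.17 and 4.69 with DW and 4.45 and 4.53 with αKG. Nkg7 was also tested and read 5.7 and 5.7 with DW and 5.5 and 5.6 with αKG. Neutrophil granule genes had a mean level of 7.37 and 6.60 with DW and 7.41 and 6.76 with αKG.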

How the data were processed

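The 16 arrays came as 1 table of log2 values for 33793 features that the authors deposited, with array medians between 4.839 and 4.929. The labels' protocols give biotin labelling with the GeneChip WT terminal labeling kit. How the values were corrected, summarised and normalized, and on which build, is not given in the sources used here; they were used as deposited. Features with exactly 1 symbol (23521) were kept, and of 1082 genes with several the feature of highest mean over the 16 arrays was taken. An R 4.3.3 script with limma 3.58.1 (lmFit, eBayes with trend) fitted 12 matched arrays with time as a block and 1 αKG effect for each of the 3 phases, leaving 3 residual degrees of freedom. P-values were Benjamini-Hochberg adjusted over 15526 genes, with 0.05 as the threshold. The scripts were tested on simulated data. Pairing comes from the shared time in the labels. Deviations of same-time arrays correlated at 0.748 for 12 h and 0.737 for 24 h. Among arrays of the other treatment, each array's strongest correlation was with the array of its own time. Arrays of the same treatment were not compared in this way. The members, gene lists and anchor genes were chosen with earlier results of these data known. Of 734 listed symbols, 663 were on the array and 620 were tested. Named genes are those called (up to 20 a direction), the 10 highest and 10 lowest past 2-fold at both times, the 5 highest and 5 lowest called for each change between phases, up to 4 of smallest p in each list, and 12 anchor genes, leaving out clone-named and predicted genes except where a count is spelled out. Alternatives changed the filter, normalization, feature choice, variance model, block and samples. Promoter sequences are RefSeq's on GRCm38.p6. With 1 array per treatment and time, the number of arrays limits the precision.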

Additional observations from a re-analysis of the deposited data

Results flagged for a closer look

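The αKG effect differed between 12 to 24 h and 48 to 72 h by the test of the difference itself in 16 genes, of which the 5 with the largest change are given here with their values. Oscar changed by -2.65 ± 0.19 (SE; adjusted p = 0.00348 in limma's test), from -0.14 to -2.79. Myo1d, an unconventional myosin, changed by -2.40 ± 0.31 (adjusted p = 0.034), from -0.10 to -2.49. Ccr1, a chemokine receptor, changed by -2.23 ± 0.26 (adjusted p = 0.0193), from 0.20 to -2.03. Tm4sf19, a tetraspan membrane protein, changed by -2.18 ± 0.22 (adjusted p = 0.0103), from 0.40 to -1.78. Ext1, a heparan sulfate polymerase, changed by -2.16 ± 0.25 (adjusted p = 0.0193), from 0.56 to -1.60. Without the 12 h pair or without the 24 h pair none of these 5 passed, and without the 3 h or the 6 h pair Oscar and Tm4sf19 passed.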

How the results depend on the processing

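The main count of 15 genes at 12 to 24 h was 5 without the variance trend, 345 in the 4 arrays alone and 1 without the replicate block by time, and it ranged from 0 to 312 when 1 pair was left out. The 12 higher genes became 3, 139 and 1 in the same settings, and 0 to 125 without a pair; the 3 lower became 206 in the 4 arrays and 0 without the block, and 0 to 187 without a pair. Without the block the time steps enter the spread. The count for the change from 3 to 6 h ranged from 0 to 18 without a pair. The 16 genes of the change to 48 to 72 h became 6 without the trend, 0 without the block, and 0 to 1131 without a pair; it was 1131 once the 48 h pair was dropped, 35 once 72 h was, and 5 for either 3 h or 6 h. The cause was not tested. These 2 changes could not be had from the 4 arrays alone. All 15 genes kept their sign in every setting run. Without a pair the mean difference ranged from -0.075 to 0.83 for Stat2, -0.0052 to 0.61 for Isg20, -0.21 to 0.78 for Irf8, -0.035 to 0.27 for Nfe2l1 and -0.11 to 0.079 for Pgls, each crossing 0. Other filters, quantile normalization, centring, the robust fit and the mean of features gave 14 to 18 genes. Where a 12 h or 24 h pair is left out, the lone pair is assumed to vary like the others.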
